A study of Mus musculus with 6 samples.

Results

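The genes described here encode the machinery that displays peptides to T cells: the class I chains B2m, H2-K1 and H2-D1, the class II chains H2-Aa, H2-Ab1 and H2-Eb1, the class II chaperone Cd74, the peptide transporter subunit Tap1 and the immunoproteasome subunits Psmb8 and Psmb9. They were chosen by name, and all 10 were found among the 24602 genes of the deposited table. RNA was measured in the left ventricle of wild-type mice 5 weeks after surgery. The groups were 3 libraries from sham-operated mice and 3 from mice with transverse aortic coarctation (TAC), a surgical narrowing of the aortic arch that loads the left ventricle with pressure. The labels name no other allele and no agent in either group. The labels give no age or sex, nor whether different libraries stand for different mice, and the p-values below therefore measure only the spread between these 6 libraries.

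Class I molecules consist of a heavy chain (here H2-K1 or H2-D1) and beta-2-microglobulin (B2m), are made by nearly all nucleated cells and carry peptides cut in the cytosol, many of them by proteasomes in which Psmb8, Psmb9 and Psmb10 have taken the places of the constitutive catalytic subunits. Tap1 pairs with Tap2 to pump those peptides into the endoplasmic reticulum. Class II molecules are made mainly by dendritic cells, macrophages and B cells, where Cd74, the invariant chain, fills their groove until lysosomal proteases remove it. In the heart, class II genes are known as markers of a subset of resident and recruited macrophages, and class I genes are read in endothelial, stromal and muscle cells.

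Total estimated counts ranged from 64023153 to 69992502 per library. Genes of the mitochondrial genome took 14.8% to 19.2% of each sham library and 22.6% to 29.2% of each TAC library. Levels are compared between genes as FPKM, which are scaled to the whole library, and between groups as CPM, counts scaled to library size with TMM factors. The median log2 difference between TAC and sham over the 8795 tested genes was -0.13 in FPKM (limma on log2(FPKM + 1)) and -0.01 in CPM. The left ventricular label was checked with the muscle markers Myh6, Tnnt2, Tnni3, Myl2, Myl3, Actc1, Ryr2 and Pln, whose summed FPKM was 25340 to 29330 for sham and 17630 to 22980 for TAC. Most of these are also made in atria, and the atrial marker Myl7 differed widely between libraries, with FPKM of 11.5, 99.3 and 69.0 in sham and 60.7, 2.61 and 13.3 in TAC. The atrial list (Sln, Myl7, Myl4 and Nppa) correlated with the 10 genes at -0.52 to 0.42 over the 6 libraries, and its part in their values was not tested. The list mixes opposite directions. Nppa had a log2 difference of 1.54 ± 0.33 (SE) between TAC and sham, against -1.448 for Sln, -1.037 for Myl7 and -1.285 for Myl4 (SE 0.925 to 1.021). In bulk tissue, fewer cells of a type and less RNA per cell cannot be told apart.

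A total of 8 of the 10 genes lie in the major histocompatibility complex on chromosome 17, within the 1271.5 kb from the start of H2-K1 to the end of H2-D1 (GRCm38, GENCODE M21). H2-K1 spans chr17:33996017-34000347 on the minus strand and H2-D1 spans chr17:35262730-35267499 on the plus strand. Between them lie Psmb9 (chr17:34181987-34187764, minus strand), Tap1 (chr17:34187553-34197225, plus strand) and Psmb8 (chr17:34197721-34201454, plus strand), a cluster in which Tap1 ends 495 bases before Psmb8 starts. The class II genes follow as H2-Ab1 (chr17:34257689-34269419, plus strand), H2-Aa (chr17:34282744-34287823, minus strand) and H2-Eb1 (chr17:34305867-34316674, plus strand). B2m and Cd74 lie on other chromosomes, B2m at chr2:122147686-122153083 on the plus strand. Tap1 and Psmb9 are read from opposite strands and their gene records share 212 bases, 3.87% of the exonic bases of Tap1 and 5.79% of those of Psmb9. Whether counting used strand is unknown, and without it the reads of these bases cannot be told apart.

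Promoters are shown because class II genes are read through a conserved pair of elements, the X and Y boxes, and class I and immunoproteasome genes carry elements that answer interferons. The X and Y boxes are not confined to class II genes. RefSeq start sites (GRCm38.p6) gave a promoter window, 250 bases before to 50 bases after the start, for 8 of the 10 genes. These starts are not always those of the gene records above, and the distances below are from the RefSeq start. In the first set below the 150 bases before the start are printed 5′ to 3′ on the strand of the gene, and capitals mark motif matches: in H2-Eb1 an X box core (AGNNACNGA) 92 bases and a Y box (CTGATTGG) 62 bases before the start, in H2-Aa a Y box 51 bases before it, and in B2m the core of an interferon-stimulated response element (AAANNGAAA) 138 bases before it.
H2-Eb1, chr17:34305717-34305866, plus strand: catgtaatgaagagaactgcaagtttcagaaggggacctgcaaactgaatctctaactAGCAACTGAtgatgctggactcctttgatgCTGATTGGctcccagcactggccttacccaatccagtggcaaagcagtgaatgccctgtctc
H2-Aa, chr17:34287824-34287973, minus strand: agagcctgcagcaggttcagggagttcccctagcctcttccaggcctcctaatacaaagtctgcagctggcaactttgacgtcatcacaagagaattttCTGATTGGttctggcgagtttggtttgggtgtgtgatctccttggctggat
B2m, chr2:122147537-122147686, plus strand: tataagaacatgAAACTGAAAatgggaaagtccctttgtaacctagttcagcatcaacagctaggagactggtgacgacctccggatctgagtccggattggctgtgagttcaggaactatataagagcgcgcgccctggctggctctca

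The same Y box letters, read on either strand, stood in the windows of genes outside class II, and the second set shows 30 bases around them with the Y box in capitals. In H2-K1 and H2-D1 the match is on the opposite strand and the flanks are nearly alike. The Psmb9 match is also the Tap1 match, since the windows of these neighbours share 275 bases. The matches shown for H2-K1, H2-D1 and Psmb9 lie inside the gene records given above.
H2-K1, chr17:34000321-34000350, minus strand: atcaccaagaaCCAATCAGtgtcgccgcgg
H2-D1, chr17:35263030-35263059, plus strand: gattccaggagCCAATCAGcgtcgccgcgg
Psmb9, chr17:34187323-34187352, minus strand: gcgcgcagccgCTGATTGGaaagccgagcc

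The Y box was found in 6 of the 8 genes with a window (H2-Aa, H2-Eb1, H2-D1, H2-K1, Psmb9 and Tap1), and 4.1% of all 32851 RefSeq windows of that length hold it on either strand. The X box core was found in H2-Eb1 and, just after the start, in B2m, against 17.7% of all windows. A gamma-activated site (TTCNNNGAA) was found in Psmb8 alone, 97 bases before the RefSeq start, against 8.3% of all windows. The Psmb8 window (chr17:34197945-34198244) lies wholly inside the gene record, after the start of that record. The interferon-stimulated core was found in B2m alone, against 10.6%. No 2 of these matches overlapped within a gene. These are matches of fixed letters, which miss elements that differ from them by a base, and not measured binding.

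Per length, the 10 genes kept the same order in 6 of 6 libraries: B2m, H2-D1, Cd74, H2-K1, H2-Eb1, H2-Ab1, H2-Aa, Psmb8, Tap1 and Psmb9. B2m, the light chain shared by all class I molecules, had an FPKM of 237 ± 39.5 (SD, n = 3) in sham and 291 ± 45.5 (SD, n = 3) in TAC. The classical heavy chains stood at 160 ± 19.7 and 145 ± 16.0 for H2-D1 and at 95.7 ± 15.8 and 75.1 ± 5.93 for H2-K1, with sham first. Part of the transcript sequence of each heavy chain is shared with other genes (9.6% of the 50-base words of H2-K1, the closest gene being H2-Q10 with 5.2%, and 12.4% of those of H2-D1, the closest being H2-Q1 with 5.9%), so the division of reads among these genes is uncertain.

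Cd74 was the most abundant class II gene per length. Its FPKM was 148 ± 18.3 in sham and 121 ± 5.25 in TAC, against 45.7 ± 5.64 and 41.0 ± 7.37 for the beta chain H2-Eb1, 31.6 ± 4.05 and 26.3 ± 4.86 for the beta chain H2-Ab1, and 22.4 ± 3.45 and 20.6 ± 5.61 for the alpha chain H2-Aa (SD, n = 3 each). The peptide supply genes were far lower. Psmb8 stood at 6.05 ± 0.379 in sham and 6.12 ± 0.936 in TAC, Tap1 at 3.73 ± 0.546 and 3.23 ± 0.183, and Psmb9 at 1.95 ± 0.0819 and 2.34 ± 0.482 (SD, n = 3 each). Within 1 SD of the group means, H2-D1 and Cd74 were not separated in sham, and H2-Ab1 and H2-Aa were not separated in TAC. The other neighbours in the order were separated in both groups. Tap1 and Psmb9 came as close as a ratio of 1.1 in the second TAC library. Estimated counts ranged from 469 for Psmb9 in the third sham library to 31647 for H2-D1 in the second.

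Summed over the class I chains, FPKM was 514, 552 and 409 in sham and 495, 584 and 455 in TAC. The class II chains and Cd74 summed to 241, 281 and 221 in sham and 196, 195 and 236 in TAC, and Psmb8, Psmb9 and Tap1 to 11.8, 12.7 and 10.7 in sham and 11.4, 13.1 and 10.6 in TAC. All 3 sums overlapped between the groups.

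None of the 10 genes differed between TAC and sham libraries past the threshold of edgeR's quasi-likelihood test with Benjamini-Hochberg adjustment (adjusted p under 0.05), in a table in which 6.99% of all tested genes did, 4.71% higher and 2.29% lower in TAC. DESeq2, which called 18.8% of the genes, and limma on log2(FPKM + 1), which called 5.82%, also called 0 of the 10. With an unadjusted p under 0.05, 1 of the 10 (B2m) and 28.1% of all genes stood out. Log2 differences ran from -0.19 (H2-K1) to 0.46 (B2m), 5 above and 5 below 0, with a median of 0.00 against -0.01 for all tested genes. For the class II chains and Cd74 the 95% intervals of the fold lay within 0.73 to 1.35.

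**Figure D1:**
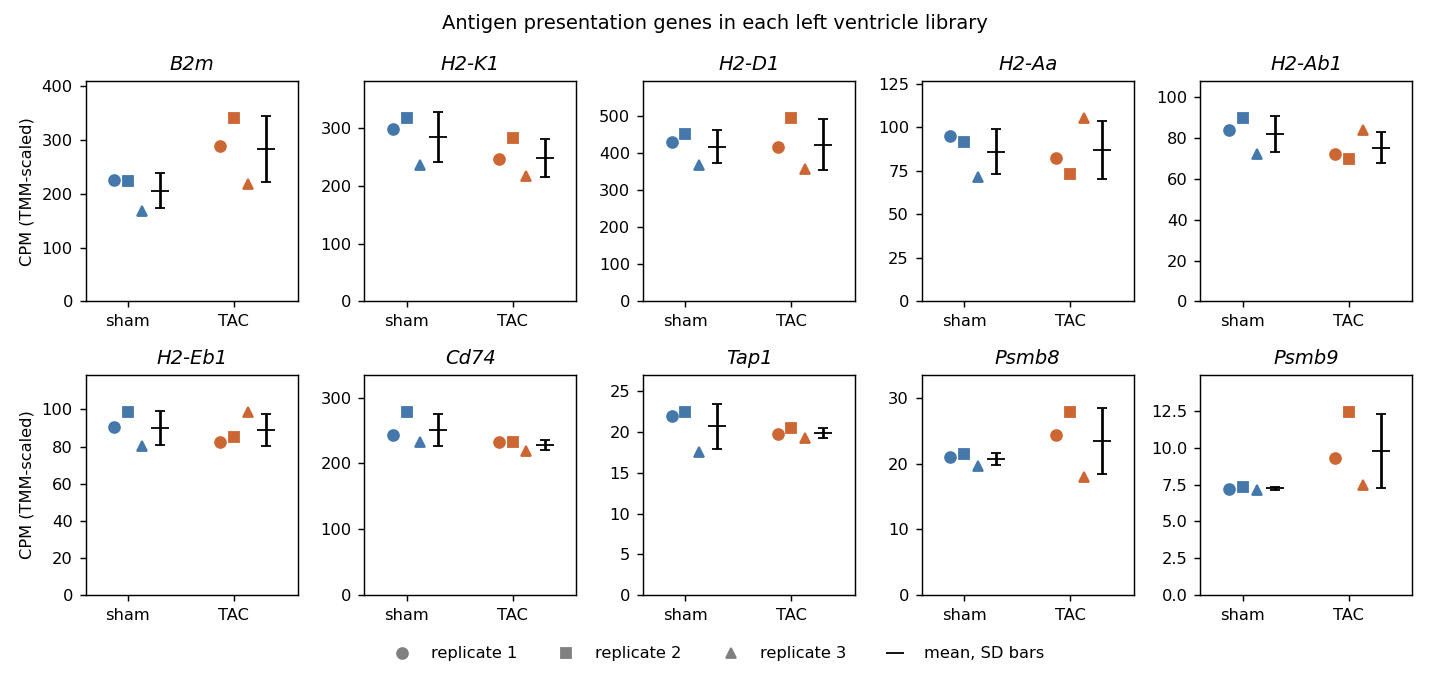
TMM-scaled CPM (linear axes from 0) of the 10 genes in each library, with sham in blue, TAC in orange, a symbol per replicate number and the mean with SD bars (n = 3) beside each group. The groups overlap in 9 of the 10 panels. In Psmb9 the TAC libraries, at 7.49 to 12.4, lie above the sham libraries, at 7.16 to 7.36.

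Among the class I chains, B2m had the largest difference of the 10 genes. Its CPM was 226, 223 and 169 in sham and 288, 342 and 219 in TAC. The first and second TAC libraries were above every sham library, and the third lay between them. The log2 difference was 0.46 ± 0.20 (SE), with a 95% interval of 0.006 to 0.91 and a fold of 1.37 (edgeR adjusted p = 0.174). Without the third TAC library it was 0.61 and passed edgeR's test (adjusted p = 0.0302, against 0.0302 to 0.406 over 20 alternative fits), and 9.24% of all genes were then called higher in TAC. With all 6 libraries and trends on GC content and length removed, the B2m difference turned to -0.34 (edgeR adjusted p = 0.328). The exonic GC content of B2m is 41.2%, the lowest of the 10, and that of the others is 50.5% to 57.4%.

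The heavy chains did not differ past the test. H2-D1, the more abundant of them, had CPM of 430, 452 and 366 in sham and 415, 494 and 357 in TAC. The highest and the lowest of the 6 libraries were both from the TAC group, and the log2 difference was 0.02 ± 0.16 (edgeR adjusted p = 0.952), with a fold interval of 0.78 to 1.32. H2-K1 had CPM of 299, 318 and 237 in sham and 246, 282 and 217 in TAC. The groups overlapped, and the log2 difference was -0.19 ± 0.17 (edgeR adjusted p = 0.488). It stayed below 0 in all 20 alternative fits, between -0.34 and -0.04.

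Set against its heavy chains within a library, B2m separated the groups. The ratio of B2m to H2-K1, in FPKM, was 2.58, 2.40 and 2.43 in sham and 4.01, 4.13 and 3.44 in TAC. The ratio of B2m to H2-D1 was 1.58, 1.48 and 1.38 in sham and 2.09, 2.07 and 1.84 in TAC. Every TAC library lay above every sham library in both ratios, by 0.64 and 0.43 on the log2 scale between the group means. These ratios were formed after the values had been seen and carry no test. The ratios of Psmb9 to Tap1 and of Tap1 to Tap2, also added, overlapped between the groups (log2 differences of 0.45 and 0.02). How many other gene pairs have ratios that separate the groups was not measured. H2-K1 has an exonic GC content of 55.8% and H2-D1 of 52.7%. In the fit with GC and length trends removed the order was the opposite, with log2 differences of -0.34 for B2m, -0.05 for H2-K1 and 0.07 for H2-D1.

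The class II chains shared a pattern over the libraries that did not follow the groups. H2-Aa had CPM of 95.0, 91.5 and 71.4 in sham and 82.3, 73.3 and 105 in TAC, a log2 difference of 0.02 ± 0.18 (edgeR adjusted p = 0.963). H2-Ab1 had 83.9, 90.0 and 72.3 in sham and 72.4, 69.5 and 84.2 in TAC, a difference of -0.12 ± 0.14 (edgeR adjusted p = 0.623). H2-Eb1 had 90.7, 98.6 and 80.3 in sham and 82.5, 85.3 and 98.8 in TAC, a difference of -0.02 ± 0.14 (edgeR adjusted p = 0.956). In all 3, the third sham library was the lowest of the sham group and the third TAC library the highest of the TAC group. The fold intervals were 0.76 to 1.35 for H2-Aa, 0.73 to 1.15 for H2-Ab1 and 0.79 to 1.23 for H2-Eb1.

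Cd74, which chaperones these chains, did not share their high value in the third TAC library. Its CPM was 243, 279 and 232 in sham and 232, 233 and 219 in TAC. The TAC libraries were close together, and the second sham library stood above the other 5. The log2 difference was -0.14 ± 0.13 (edgeR adjusted p = 0.529), a fold interval of 0.74 to 1.12. In FPKM all 3 TAC libraries (118, 118 and 127) lay below the 3 sham libraries (140, 169 and 135), which held for none of the other 9 genes, and 25.4% of all tested genes were separated in that way on the FPKM scale.

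Psmb9 was the gene whose CPM did not overlap between the groups, and 17.7% of all tested genes lay apart in the same direction. This subunit had CPM of 7.20, 7.36 and 7.16 in sham and 9.31, 12.4 and 7.49 in TAC. The sham libraries were nearly equal and the spread lay in the TAC group, in which the third library was just above them. The log2 difference was 0.43 ± 0.21 (edgeR adjusted p = 0.232), with a 95% interval of -0.06 to 0.92. It stayed above 0 in each of the 19 alternative fits that kept the gene, between 0.17 and 0.59. In FPKM the groups overlapped, at 1.895, 2.041 and 1.903 in sham and 2.158, 2.892 and 1.983 in TAC.

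Psmb8 and Tap1, its neighbours on the chromosome, did not differ past the test. Psmb8 had CPM of 21.02, 21.45 and 19.70 in sham and 24.35, 27.95 and 17.98 in TAC. The first and second TAC libraries were above the sham range and the third below it, with a log2 difference of 0.18 ± 0.19 (edgeR adjusted p = 0.582). Tap1 had CPM of 22.05, 22.54 and 17.54 in sham and 19.76, 20.55 and 19.34 in TAC. All 3 TAC libraries lay within the sham range, with a difference of -0.06 ± 0.16 (edgeR adjusted p = 0.846). Tap2, the other subunit of the transporter, had a difference of -0.06 ± 0.14 (edgeR adjusted p = 0.815).

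**Figure D2:**
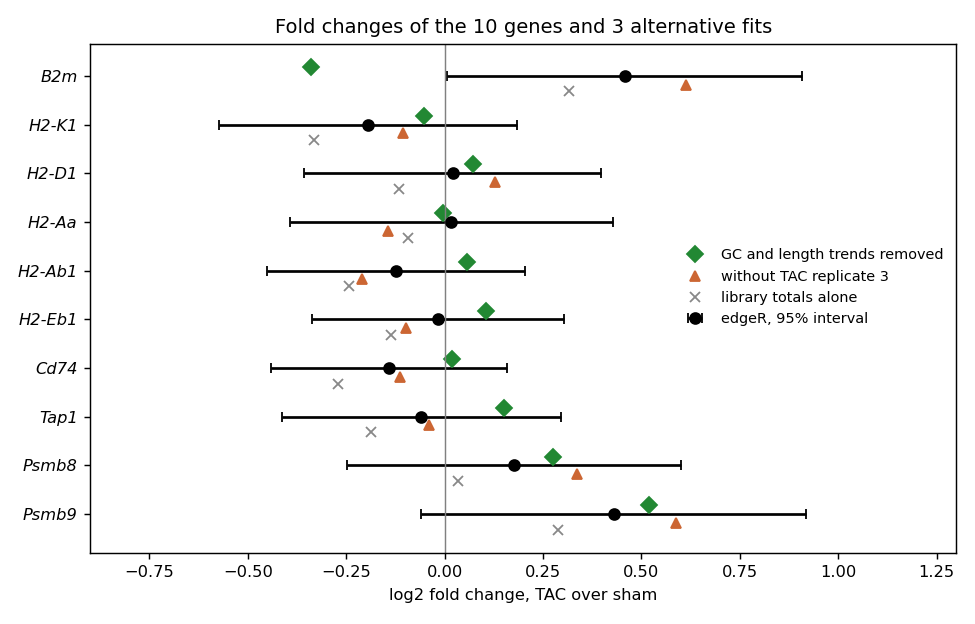
Log2 fold changes of TAC over sham for the 10 genes. Black points with bars are edgeR estimates with 95% intervals. The other symbols are the same genes with GC and length trends removed (green diamonds), without the third TAC library (orange triangles) and with libraries scaled by their totals alone (grey crosses). B2m lies at 0.46 and moves to -0.34 in the GC and length fit. The 9 other intervals include 0.

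Each immunoproteasome subunit was also set against the constitutive subunit whose place it takes. The ratio of Psmb8 to Psmb5, in FPKM, was 0.0515, 0.0444 and 0.0439 in sham and 0.0520, 0.0538 and 0.0638 in TAC. The ratio of Psmb9 to Psmb6 was 0.0285, 0.0259 and 0.0245 in sham and 0.0341, 0.0419 and 0.0436 in TAC. In both pairs every TAC library lay above every sham library, though for Psmb8 the lowest TAC value barely exceeded the highest sham value. The ratios differed by 0.28 and 0.59 on the log2 scale, each with an exact 2-sided permutation p of 0.1, which is the smallest that 3 against 3 allows (0.15 after Benjamini-Hochberg adjustment over 3 ratios). The 3 ratios were planned with earlier results of these data known.

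The third pair did not separate the groups. Psmb10 to Psmb7 was 1.28, 1.61 and 1.40 in sham and 1.74, 1.57 and 1.33 in TAC, with an exact permutation p of 0.5 (0.5 adjusted). The constitutive subunits themselves did not differ past edgeR's test, with log2 differences of -0.08 ± 0.22 for Psmb5 (adjusted p = 0.856), -0.16 ± 0.21 for Psmb6 (adjusted p = 0.66) and 0.07 ± 0.13 for Psmb7 (adjusted p = 0.768). In the third TAC library Psmb5 was at 74.7 and Psmb6 at 87.4 CPM, while the other 5 libraries held 108 to 138 and 129 to 151. That library had the highest ratio in both pairs and, within the TAC group, the lowest Psmb8, Psmb9, Psmb5 and Psmb6. Immunoproteasome messages remained a small part of the catalytic subunits at these positions in both groups, with ratios of at most 0.0638 to Psmb5 and 0.0436 to Psmb6, whereas Psmb10 exceeded Psmb7 in 6 of 6 libraries.

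**Figure D3:**
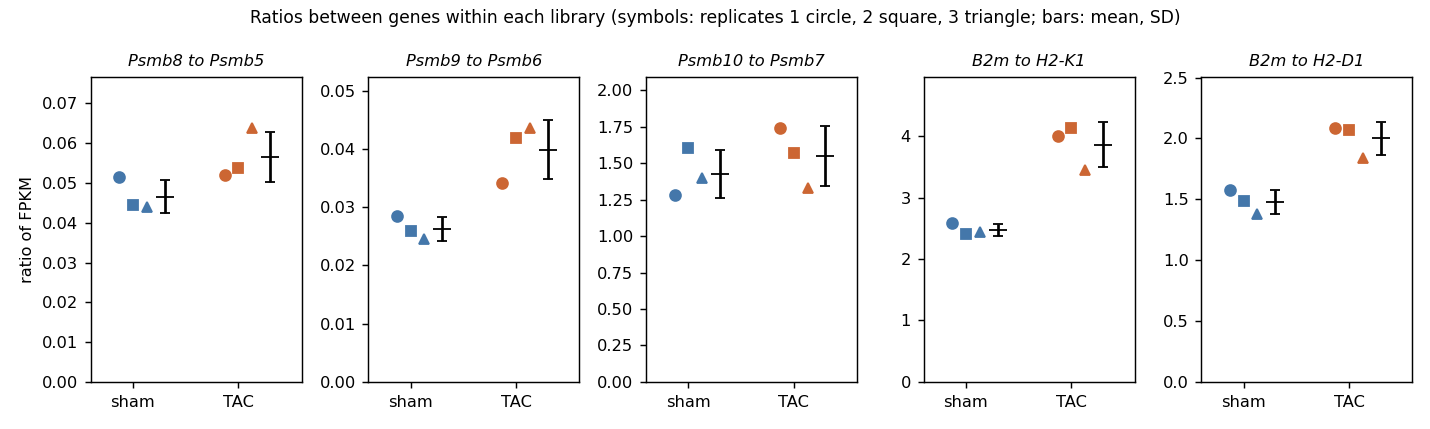
Ratios of FPKM within each library (linear axes from 0) for the 3 pairs of immunoproteasome and constitutive subunits and for B2m over each heavy chain, with sham in blue and TAC in orange and mean with SD bars (n = 3). TAC lies above sham without overlap in the planned ratios Psmb8 to Psmb5 and Psmb9 to Psmb6 and in both B2m ratios. The planned ratios were chosen with earlier results of these data known. The B2m ratios share a numerator and were formed after the values had been seen. The added ratios Psmb9 to Tap1 and Tap1 to Tap2 overlapped and are not drawn. Psmb10 to Psmb7 overlaps, with sham at 1.28 to 1.61 and TAC at 1.33 to 1.74.

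The rest of the pathway was read from 6 gene lists, 48 genes of which were tested. Of these, 5 passed edgeR's test (10.4%, against 6.99% of all genes), 4 higher and 1 lower in TAC, and DESeq2 called 10, against 18.8% of all genes. They came from 4 of the lists, Pomp and Psme1 from the same one, and each is given with its own values. None of the 5 calls lasted in every fit, and the calls over all 8795 genes moved as well. EdgeR called 0 of the 48 without the second or the third sham library or the first or the second TAC library. Over all genes it then called 12, 51, 51 and 133. It called 2 of the 48 without the first sham library (361 of all genes) and 9 without the third TAC library (1705 of all genes).

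Of 14 tested class I genes outside the 10, 1 rose and none fell (median log2 difference 0.09). It was Pdia3, a disulfide isomerase of the endoplasmic reticulum that joins the class I loading complex and also folds many other glycoproteins. Its CPM was 26.4, 16.9 and 24.6 in sham and 47.6, 43.4 and 38.7 in TAC, without overlap, a log2 difference of 0.93 ± 0.19 (edgeR adjusted p = 0.0333). In CPM, 17.7% of all tested genes lay apart in that direction. The other loading factors did not pass: Tapbp (tapasin, which bridges TAP and the heavy chain) had -0.16 ± 0.13 (edgeR adjusted p = 0.439), the chaperone Calr -0.27 ± 0.19 (adjusted p = 0.388) and the chaperone Canx 0.57 ± 0.20 (adjusted p = 0.114). The nonclassical and Qa genes that passed the filter, H2-Q4, H2-Q5, H2-Q6, H2-Q7, H2-T22, H2-T23, H2-T24 and H2-M3, had log2 differences between -0.04 and 0.34, none past the test. Sequence sharing was not measured for these genes, and class I genes of this kind can share reads.

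Of 9 tested class II genes outside the 10, 1 rose and none fell (median -0.16). Ctsl, a lysosomal protease that can trim the invariant chain and has broad roles in protein turnover, had CPM of 63.2, 56.8 and 75.7 in sham and 97.3, 108 and 131 in TAC, a log2 difference of 0.78 ± 0.17 (edgeR adjusted p = 0.0355). Ctss, the protease known for removing the invariant chain in antigen-presenting cells, had CPM of 3.77, 3.80 and 3.13 in sham and 6.20, 5.31 and 9.44 in TAC. The groups did not overlap, as for 17.7% of all tested genes in that direction. The log2 difference of 0.97 ± 0.25 missed the threshold (edgeR adjusted p = 0.0571). It was 0.57 with GC and length trends removed (edgeR adjusted p = 0.186, against 0.00513 to 0.288 over all alternatives, DESeq2 included). H2-DMa, which helps exchange the invariant chain fragment for antigen, had -0.25 ± 0.20 (edgeR adjusted p = 0.459), and the abundant lysosomal genes Lgmn, at -0.16 ± 0.13, and Ifi30, at 0.04 ± 0.17, did not pass either.

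Of 5 tested proteasome partners and activators 1 rose and 1 fell (median -0.03), and none of the 3 constitutive subunits passed (median -0.08). Pomp, which assembles immunoproteasomes and standard proteasomes, had CPM of 36.6, 30.1 and 33.9 in sham and 54.2, 55.8 and 48.1 in TAC, a log2 difference of 0.65 ± 0.14 (edgeR adjusted p = 0.0352). Psme1, a subunit of the PA28 cap that opens the proteasome, had 182, 215 and 197 in sham and 132, 146 and 110 in TAC, a difference of -0.61 ± 0.15 (edgeR adjusted p = 0.0466). Neither gene had overlapping groups. In CPM, 17.7% of all tested genes lay apart and higher in TAC, as Pomp did. The share apart and lower, as Psme1 was, is not given here. The second PA28 subunit, Psme2, had -0.03 ± 0.17 (edgeR adjusted p = 0.929), and Psmb10 had 0.20 ± 0.15 (edgeR adjusted p = 0.437).

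Of 13 tested genes of interferon-gamma signalling and MHC regulation, 1 rose and none fell (median -0.12). Ifngr1, the ligand-binding chain of the interferon-gamma receptor, had CPM of 26.3, 21.6 and 25.8 in sham and 36.6, 34.7 and 37.7 in TAC, a difference of 0.57 ± 0.14 that lay at the threshold (edgeR adjusted p = 0.0498). With GC and length trends removed it was 0.37 and no longer passed. The second chain, Ifngr2, had CPM of 271, 282 and 198 in sham and 134, 138 and 213 in TAC, with overlapping groups and a difference of -0.63 ± 0.22 (edgeR adjusted p = 0.109). The transcription factor Irf1 had 0.26 ± 0.13 (edgeR adjusted p = 0.244). The master regulators of the MHC genes themselves were below the filter: Nlrc5, the class I transactivator, had FPKM of 0.388, 0.215 and 0.190 in sham and 0.213, 0.308 and 0.393 in TAC, and Ciita, the class II transactivator, 0.250, 0.109 and 0.195 in sham and 0.147, 0.0865 and 0.296 in TAC. In sham, Ciita was lowest in the second library, where H2-Ab1 and H2-Eb1 were highest in FPKM and in CPM. H2-Aa was also highest there in FPKM, with 24.2, 24.5 and 18.4 in sham. In CPM, H2-Aa was highest in the first sham library, where Ciita was highest in FPKM. In TAC, Ciita had the library order of H2-Aa and H2-Ab1, highest in the third and lowest in the second. H2-Eb1 was also highest in the third TAC library but lowest in the first. Ciita had only 62 to 207 estimated counts per library, and its part in the class II values was not tested. None of 4 tested co-stimulatory and co-inhibitory ligands passed (Icosl, Icam1, Cd276 and Vsir, median 0.16).

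**Figure D4:**
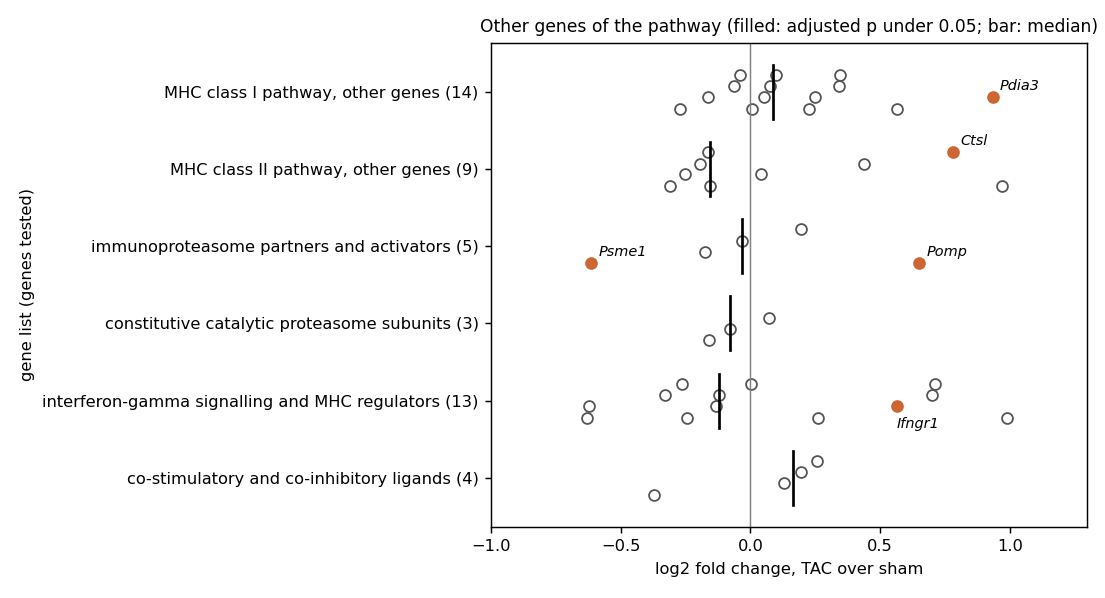
Log2 fold changes of TAC over sham for 48 tested genes of 6 pathway lists. Each circle is a gene, filled and named where edgeR's adjusted p was under 0.05, and the bar is the median of the list. The medians lie between -0.16 and 0.16, and the named genes are Pdia3, Ctsl, Pomp and Ifngr1 to the right of 0 and Psme1 to the left.

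Over the 6 libraries some of the 10 genes varied together. The class II chains correlated with one another at r of 0.83 to 0.89 (Pearson, log2 CPM), and B2m, Psmb8 and Psmb9 at 0.86 to 0.90. H2-K1 and H2-D1 correlated at 0.82, and H2-K1 also at 0.85 with Tap1 and 0.84 with Cd74. Psmb8 also correlated with H2-D1, at 0.85. B2m stood at 0.73 with its heavy chain H2-D1 and at 0.26 with H2-K1. Cd74 stood at 0.55 with H2-Ab1, 0.37 with H2-Eb1 and 0.07 with H2-Aa. The lowest of all pairs was Psmb9 with H2-Ab1, at -0.68. These are descriptions over 6 points that share libraries and scaling, and the 45 pairs were not tested.

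Marker lists of other cells were set beside these values, as a description over the same 6 libraries (70 correlations, no tests). The endothelial list (Pecam1, Cdh5, Tek, Kdr, Tie1, Emcn, Egfl7 and Cldn5, all 8 tested, Tek higher in TAC) had its highest mean deviations in the first and second TAC libraries (0.35 and 0.41, log2) and its lowest in the third (-0.31). B2m, Psmb8 and Psmb9 correlated with that list at 0.86, 0.92 and 0.87 over the 6 libraries. The summed FPKM of the list was 177 to 197 in sham and 149 to 215 in TAC. The red blood cell list was also highest in the first and second TAC libraries (0.91 and 0.94). It correlated with B2m, Psmb8 and Psmb9 at 0.5, 0.56 and 0.71. The ventricular muscle list stood at 0.14, 0.62 and 0.33 with them, and the macrophage list at -0.2, -0.63 and -0.45. The part of any of these lists in the B2m, Psmb8 and Psmb9 values was not tested.

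The macrophage list correlated with H2-Aa at 0.80, with H2-Eb1 at 0.55, with H2-Ab1 at 0.50 and with Cd74 at -0.26. The ventricular muscle list correlated with the class II chains in the opposite direction, at -0.86 with H2-Aa, -0.79 with H2-Eb1 and -0.59 with H2-Ab1. In all, 8 of 14 macrophage markers were tested and none passed edgeR's test, with a summed FPKM of 258 to 310 in sham and 226 to 292 in TAC, most of it from C1qa, C1qb and C1qc. The third TAC library had the highest deviations of the macrophage (0.33) and fibroblast (1.07) lists and the lowest of the muscle list (-0.23). Of 6 fibroblast markers, Dcn and Lum rose past edgeR's test. Pdgfra, Col1a1 and Dpt, with log2 differences of 0.995, 0.731 and 0.793, and Tcf21, with -0.098, did not pass. The list's summed FPKM was 46.6 to 55.4 in sham and 69.1, 57.0 and 138 in TAC, highest in the third TAC library. The red blood cell list had the strongest correlation of the 70, -0.95 with H2-Ab1, and its summed FPKM was 617 to 1921 in sham and 1252 to 2588 in TAC, with none of its 5 genes past the test. The part of these lists in the class II values was not tested.

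Markers of dendritic cells and lymphocytes were scarce. None of 9 dendritic cell markers reached the filter (summed FPKM 0.895 to 1.70 in sham and 1.32 to 2.45 in TAC), with Flt3, Xcr1 and Siglech below 0.1. Of 7 B cell markers Ighm alone was tested and did not pass, and Ms4a1, Pax5 and Cd22 were below 0.1. None of 10 T and NK cell markers was tested (1.59 to 2.84 in sham and 1.80 to 2.92 in TAC), with Cd3d, Cd3e, Cd3g, Cd8a and Ncr1 below 0.1. Of 8 general leukocyte markers 7 were tested and none passed, with sums of 40.1 to 50.0 in sham and 38.8 to 53.1 in TAC, while Ptprc, which encodes the common leukocyte antigen, had a mean FPKM of only 0.0365.

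**Figure D5:**
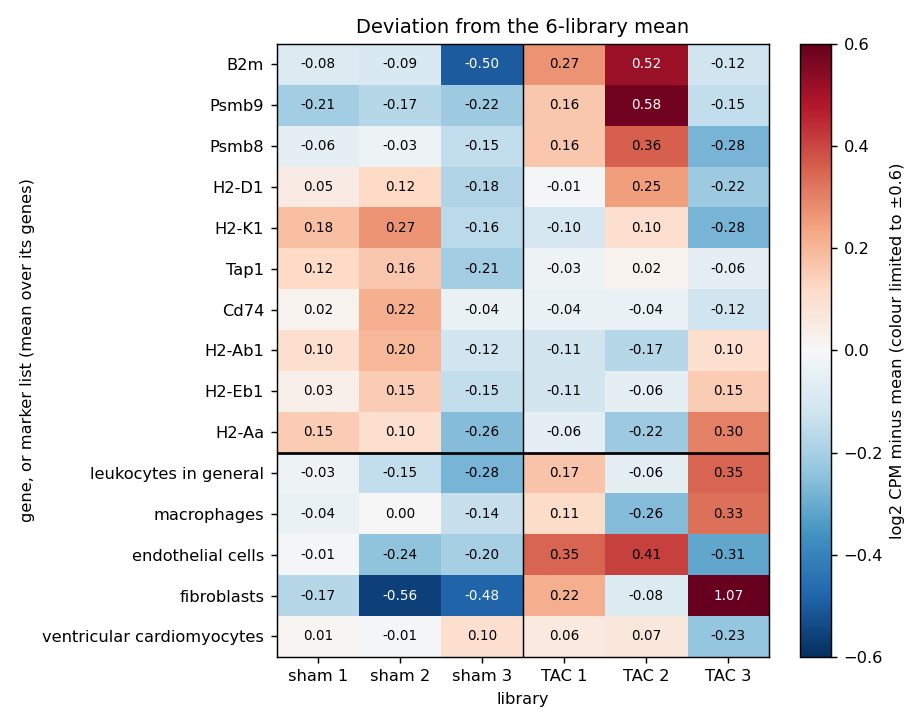
Log2 CPM of each gene minus its mean over the 6 libraries, and below the line the same averaged over marker lists, by library (red above, blue below the mean, colour limited to 0.6 either way). B2m, Psmb9 and Psmb8 are highest in the second TAC library with the endothelial list. H2-Aa and the macrophage, leukocyte and fibroblast lists are highest in the third TAC library. H2-Eb1 stands at 0.15 both there and in the second sham library, and H2-Ab1 is highest in the second sham library (0.2, against 0.1 in the third TAC library).

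The tested genes outside the 10 whose log2 CPM was most like that of Cd74 over the 6 libraries were Traf2 (r = 0.992), Tmcc2 (0.988) and Nme3 (0.987). Those most like B2m were Chchd4 (0.988), the predicted gene Gm12989 (0.987) and Asns (0.981). These are descriptions over 6 points, taken as the highest of 8795 genes, and none of these 6 genes passed edgeR's test.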

How the data were processed

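Per the file headers, the deposited table gives each of 24602 genes an FPKM value and an estimated count in every one of 6 libraries. Per the labels' protocols, Trizol RNA was selected with oligo(dT) and made into libraries with a dUTP-marked second strand. The authors' software, per the submitters' processing notes, included StringTie 1.3.4d, HISAT2 2.0.4 and cutadapt 1.9 on build GRCm38. The estimated counts were already whole numbers. Use of strand in counting was not given in the sources used here. Of the gene identifiers, 24547 matched GENCODE M21.

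The 10 genes, gene lists, markers and tests were chosen with earlier results of these data known. A minimum mean FPKM of 1 left 8795 genes. They were scaled by TMM and tested in R 4.3.3 with the quasi-likelihood test of edgeR 4.0.16, and p-values were adjusted over all tested genes by the Benjamini-Hochberg method. The standard error is the log2 difference over the root of F. Alternatives were other scalings and filters, DESeq2 1.42.0, limma 3.58.1 on log2(FPKM + 1) and log2(FPKM + 0.1), smooth trends on GC content and length, a replicate block, leaving out each library, merged overlapping records and, added after seeing the data, a fit without mitochondrial genes and their copies on chromosome 1. Ratios were compared by exact permutation (scipy 1.17.1). The fits were tested on simulated data. Named were the 10 genes, the passing or most abundant genes of each list, fixed partners, and the 3 genes most like Cd74 and B2m. Psme2, Canx, Ifngr2, the nonclassical class I genes and the ratios of B2m to its heavy chains were added after their values were seen. The ratios of Psmb9 to Tap1 and of Tap1 to Tap2 were also added to the plan. Some genes of the lists are not reported here.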

Additional observations from a re-analysis of the deposited data

How the results depend on the processing

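None of the 10 genes passed under any scaling, filter, test or trend correction that was run, and leaving out each library gave 0 to 1 passing genes, the 1 being B2m without TAC replicate 3. H2-K1, Psmb8 and Psmb9 kept their direction in every alternative that gave a value. Tap1 and Psmb9 had none at a mean FPKM of 5 or more. With GC and length trends removed, without and with a replicate block, B2m turned to -0.34 and -0.31, H2-Aa to -0.003 and -0.0, H2-Ab1 to 0.056 and 0.024, H2-Eb1 to 0.104 and 0.096, Cd74 to 0.018 and 0.02, Tap1 to 0.15 and 0.15, Tapbp to 0.025 and 0.023 and Canx to -0.048 and -0.056. With library totals alone, H2-D1 turned to -0.117 and H2-Aa to -0.094, with limma (pseudocounts 1 and 0.1) to -0.13 and -0.13 and to -0.13 and -0.14, with no filter to -0.08 and -0.091, and with edgeR's filterByExpr to -0.074 and -0.089. H2-Eb1 turned to 0.043 and Tap1 to 0.003 with upper-quartile scaling, and H2-Eb1 to 0.071 at a mean FPKM of 5 or more. Leaving out 1 library at a time gave log2 differences on both sides of 0 for H2-D1 (-0.109 to 0.128), H2-Aa (-0.145 to 0.126), H2-Eb1 (-0.099 to 0.057) and Tap1 (-0.165 to 0.012). The cause of these turns was not tested.

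All genes called numbered 615 (414 higher, 201 lower), and 345 with library totals (157 higher, 188 lower), 1648 with DESeq2, 512 with limma on log2(FPKM + 1) (174 higher, 338 lower), 285 with no filter, 211 at a mean FPKM of 5 or more, 183 with the replicate block, 156 with the block and trends removed, and 12 to 1705 without 1 library. Upper-quartile scaling gave 555 higher and 164 lower. Pathway genes called numbered 5, and 2 with library totals, 10 with DESeq2, 2 and 2 with limma at either pseudocount, 0 with no filter, 3 with filterByExpr, 0 with the block, 0 with block and trends, and 0 to 9 without 1 library. Deviations of same-numbered libraries from their group means correlated at -0.17, 0.18 and -0.13, and not every library correlated best with its own number. The labels do not say whether the numbers pair the samples. With 3 libraries a group these correlations depend on one another and cannot decide it. With 3 libraries a group, the intervals of the 10 genes are the limit on what could be seen.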
